A study of Mus musculus with 6 samples.

Results

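The genes described here are 52 enzymes and readers of histone acetylation, histone methylation and DNA methylation in mouse alveolar macrophages, which clear particles and surfactant from the alveoli. They were chosen by symbol from the 18392 genes of the deposited expression table, all 52 were listed, and all 52 passed the filter on low values. They fall into 13 acetyltransferases, 6 sirtuins, 4 bromodomain readers, 13 histone demethylases, 12 histone methyltransferases with their polycomb partners and 4 genes of DNA methylation. RNA was sequenced from macrophages sorted by flow cytometry from the digested lungs of C57BL/6 mice 6 weeks of age. The control group, 3 libraries, came from Hdac3fl/fl mice, which carry floxed Hdac3 alleles, with no Cre in the label. The knockout group, 3 libraries, came from Cd11c-CreHdac3fl/fl mice, in which a Cre recombinase driven by Cd11c (Itgax) deletes Hdac3 in every cell type that uses this promoter, dendritic cells included. Nothing in the labels ties a library to its own mouse, so p-values here reflect library-to-library spread, which may be technical.

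Acetyltransferases add acetyl groups to lysines of histone tails, deacetylases such as Hdac3 and the sirtuins remove them, and bromodomain proteins bind the acetylated lysines. Methyltransferases and demethylases set and erase methyl marks on the same tails, some linked to active genes and some to silent ones, and the Dnmt and Tet enzymes write and oxidise methyl groups on DNA. In macrophages these enzymes act with lineage factors and with nuclear receptors at enhancers, and Hdac3 is the catalytic subunit of the NCoR and SMRT corepressor complexes that oppose the acetyltransferase coactivators.

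Levels are FPKM, which divide the fragments of a gene by transcript length and by library total, given as mean ± SD of 3 libraries with the control group first. Changes are log2 differences of FPKM + 1, knockout minus control, from limma over the 10847 genes whose mean reached 1 FPKM, and a gene is called at an adjusted p under 0.05. The added 1 FPKM makes the log2 changes of low genes too small. Because FPKM are shares of a library, each change is also given after TMM scaling (trimmed mean of M values), which moved the median change of all tested genes from -0.31 to 0.02.

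Hdac3 itself (chromosome 18, 37936971 to 37955015, GRCm38 as for all positions here) read 17.7, 19.9 and 16.9 FPKM in the control libraries and 4.36, 5.05 and 3.97 FPKM in the knockout libraries, a log2 change of -1.81 (-1.48 after TMM; limma adjusted p = 6.8e-07). All 13 markers of alveolar macrophages were above 1 FPKM in at least 1 library, and their summed level was 18039 to 20318 FPKM in controls and 22990 to 29810 in knockouts, most of it Chil3 (12877 ± 1287 and 21886 ± 3716 FPKM). Of these 13 markers 5 were called higher, Chil3, Car4, Fabp5, Itgax and Mrc1, and 6 lower. The lower ones were Ear1 (980 ± 57.8 to 31.8 ± 2.49 FPKM), Ear2 (2742 ± 131 to 506 ± 8.73), Cidec (181 ± 3.98 to 20.7 ± 0.720), Krt79 (182 ± 22.5 to 24.9 ± 2.95), Marco (228 ± 31.3 to 138 ± 7.71) and Pparg (129 ± 4.63 to 74.0 ± 6.40). Siglecf and Fabp4 were not called as deposited. After TMM 6 of the 13 were called higher, now with Siglecf (log2 change 0.32), and 6 lower, and Fabp4 was not called. Markers of several other lung cells were lower in knockouts. The marker counts in this paragraph stand beside 58.8% of all tested genes called lower and 11.0% called higher as deposited. After TMM these shares were 26.0% and 30.0%. The 4 B cell markers summed to 14.2 to 28.4 FPKM in controls and 5.18 to 6.41 in knockouts, and 4 of 4 were called lower. The 5 T and NK cell markers in the table summed to 4.67 to 8.92 and 1.11 to 1.93 FPKM, with 2 of 2 tested markers lower. The 6 epithelial markers summed to 94.4 to 287 and 20.5 to 89.2 FPKM, with 4 of 5 tested lower, and the 6 endothelial and fibroblast markers to 15.1 to 36.0 and 4.48 to 8.51 FPKM, with 3 of 5 tested lower. In each of these 4 lists the first control library had the highest sum. The 9 markers of monocytes and interstitial macrophages summed to 7.48 to 8.78 and 7.94 to 10.8 FPKM, and of 3 tested C1qb was called higher and Ccr2 lower. The 6 of dendritic cells summed to 4.53 to 13.0 and 4.30 to 7.81 FPKM, and of 2 tested Clec9a was called higher (1.5 ± 0.503 and 4.40 ± 1.65 FPKM) and Ccr7 lower. The 6 of neutrophils summed to 62.1 to 77.0 and 32.1 to 52.7 FPKM, and of 5 tested Csf3r was called lower (34.9 ± 13.7 and 4.77 ± 0.911 FPKM) and the other 4 were not called, with a median log2 change of 0.13 over the 5. The 3 of erythroid cells summed to 31.8 to 199 and 14.2 to 73.2 FPKM, and 0 of 2 tested were called by limma. No listed marker was at 0 in all 6 libraries, and the neutrophil marker Ly6g did not exceed 0.06 FPKM. The part of these cells in the results below was not tested, and in sorted bulk samples fewer cells of a type and less RNA per cell cannot be told apart.

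Most of the chromatin enzymes and readers were lower without Hdac3. Of the 52 genes, 47 fell and 2 rose as deposited, with a median log2 change of -0.62. Among all tested genes 69.8% were called, 58.8% lower and 11.0% higher, and the median was -0.31. After TMM scaling 30 of the 52 fell and 5 rose, with a median of -0.28, while 56.0% of all tested genes were called, 26.0% lower and 30.0% higher, with a median of 0.02. The counts of falls thus depend on the scaling. Of the 52 genes, 45 lay below the median of all genes as deposited and 44 after TMM scaling. The 30 genes that fell after scaling had all fallen as deposited. The largest fall was that of the acetyltransferase Kat6b, and Ncoa2, Ncoa1 and Kmt2c also had log2 changes of -1 or less, which makes 4 of 52 genes, as against 7.91% of all tested genes. After TMM scaling this held for Kat6b only, 1 of 52 genes beside 445 of 10817 tested genes. The added 1 FPKM also bears on which genes pass this cutoff. The genes that rose under both scalings were the maintenance DNA methyltransferase Dnmt1 and the mitochondrial sirtuin Sirt3. The FPKM of 50 of the 52 genes did not overlap between the groups, which held for 74.5% of all tested genes. Mean levels over the 6 libraries ran from 1.93 FPKM for Kdm5b to 79.9 FPKM for Sirt2, with a median of 11.6 FPKM beside 10.6 for all tested genes.

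**Figure D1:**
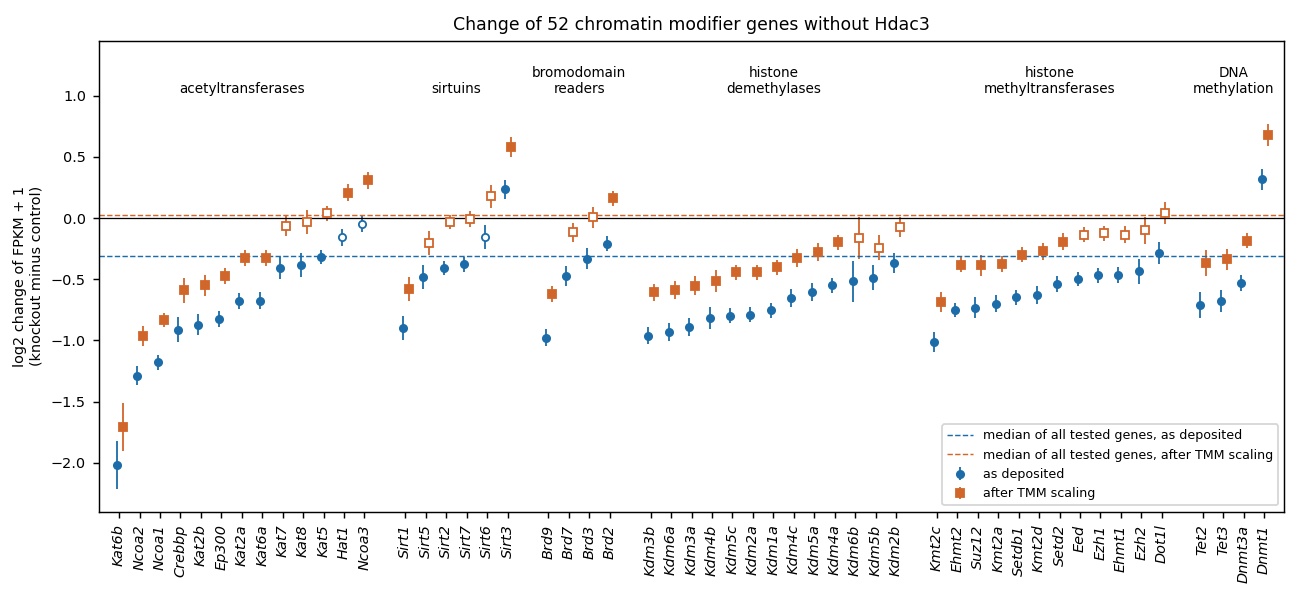
Log2 change of FPKM + 1 (knockout minus control, n = 3 per group) of each gene by class, as deposited (circles) and after TMM scaling (squares). Bars are standard errors, filled symbols passed limma at an adjusted p under 0.05, and dashed lines mark the median of all tested genes (-0.31 and 0.02). Kat6b lies lowest, and Dnmt1 and Sirt3 are the genes with filled symbols above 0 under both scalings.

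Promoter sequence is shown for Kat6b and Ncoa1, which are among the 3 largest falls, and for Dnmt1 and Sirt3, the genes that rose under both scalings. The 250 bases before an annotated start (RefSeq, GRCm38.p6) are printed 5′ to 3′ on the strand of the gene, with the GC box GGGCGG, on either strand and with overlaps counted, in capitals.
Kat6b, first listed start, chr14:21499520-21499769, plus strand: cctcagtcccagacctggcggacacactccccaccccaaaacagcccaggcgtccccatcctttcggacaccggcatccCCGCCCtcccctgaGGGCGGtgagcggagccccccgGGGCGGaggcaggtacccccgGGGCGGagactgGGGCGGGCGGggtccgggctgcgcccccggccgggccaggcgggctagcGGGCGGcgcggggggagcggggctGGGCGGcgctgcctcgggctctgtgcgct
Ncoa1, the listed start, chr12:4477183-4477432, minus strand: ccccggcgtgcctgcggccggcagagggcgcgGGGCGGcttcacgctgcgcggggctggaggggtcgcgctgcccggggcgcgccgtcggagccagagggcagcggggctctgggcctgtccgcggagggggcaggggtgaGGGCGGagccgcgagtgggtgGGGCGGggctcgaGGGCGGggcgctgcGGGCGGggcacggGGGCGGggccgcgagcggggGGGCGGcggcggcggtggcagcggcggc
Dnmt1, second listed start, chr9:20952980-20953229, minus strand: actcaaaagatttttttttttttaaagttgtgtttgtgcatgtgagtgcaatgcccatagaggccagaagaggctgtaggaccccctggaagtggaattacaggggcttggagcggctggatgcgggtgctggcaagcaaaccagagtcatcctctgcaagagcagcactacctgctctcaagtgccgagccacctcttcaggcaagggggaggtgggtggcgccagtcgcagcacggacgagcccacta
Sirt3, first listed start, chr7:140882310-140882559, minus strand: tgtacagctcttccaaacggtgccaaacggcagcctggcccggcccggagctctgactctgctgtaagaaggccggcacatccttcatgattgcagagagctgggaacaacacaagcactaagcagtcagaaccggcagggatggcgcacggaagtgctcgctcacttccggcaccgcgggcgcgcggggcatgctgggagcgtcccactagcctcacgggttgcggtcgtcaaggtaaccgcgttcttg
The Kat6b stretch held 8 GC boxes and 27 CpG dinucleotides at 78.8% G + C, and the Ncoa1 stretch held 7 GC boxes and 40 CpG dinucleotides at 85.6%. The stretches of Dnmt1 and Sirt3 held 0 GC boxes, with 7 and 21 CpG dinucleotides at 54.8% and 62.4%, but 1 other listed start of each gene did have a GC box. Windows of 300 bases, 250 before and 50 after a start, matched 44 of the 52 genes by gene ID, with 64 starts.

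Motif shares in those 64 windows are given beside those of tested genes and of all genes. The GC box, GGGCGG on either strand, was present in 45 of 64 windows (70.3%), in 62.6% of the 10970 windows of tested genes and in 35.7% of all 32851 windows. The TATA box TATAAA was present in 0 of 64, in 6.99% of windows of tested genes and in 13.6% of all. The ETS core CCGGAAG was present in 20.3%, as against 19.3% for tested genes and 8.86% for all, and the NRF1 core TGCGCA in 18.8%, 14.3% and 7.76%. CCAAT was present in 34.4%, 38.3% and 37.4%, the E-box CACGTG in 12.5%, 10.4% and 7.15%, and the nuclear receptor half-site AGGTCA in 12.5%, 12.5% and 16.3%. The AP-1 site TGACTCA was present in 9.38% of the windows, in 3.63% for tested genes and 5.20% for all. It lay in windows of Kat2b, Kat8, Kdm3a, Kdm4a and Kdm5c. The cAMP response element TGACGTCA was present in 0 of 64, 3.11% and 1.79%, and the E2F site TTTGGCGC in 3.13%, 1.03% and 0.514%, here in windows of Dnmt1 and Ezh2. Each motif was searched on both strands, and a match describes letters only.

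Among the acetyltransferases, 11 of 13 fell and none rose as deposited, and 8 fell and 2 rose after TMM scaling, with a median log2 change of -0.68 (-0.33 after TMM). Over all tested genes 58.8% fell as deposited and 26.0% after TMM. Kat6b (chromosome 14, 21499216 to 21672478), a MYST-family acetyltransferase of the MOZ and MORF complexes, read 18.4, 11.3 and 11.0 FPKM in controls and 2.43, 2.91 and 2.21 in knockouts. The groups did not overlap, and the first control library stood above the others. The Kat6b mean fell from 13.6 ± 4.22 to 2.52 ± 0.358 FPKM, 5.39-fold (log2 change -2.02, SE 0.20, limma adjusted p = 0.00012; -1.71 after TMM). Only 1.27% of all tested genes had a lower log2 change. Without the first control library, which also had the highest sums of lymphoid, epithelial and endothelial markers, the log2 change was -1.79. Its relative Kat6a, at 14.5 ± 0.746 and 8.72 ± 0.349 FPKM, fell as well (log2 change -0.67, and -0.33 after TMM).

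Of the p160 coactivators, which bind liganded nuclear receptors and recruit further acetyltransferases, Ncoa1 and Ncoa2 fell under both scalings and Ncoa3 was not called lower under either. Ncoa1 (chromosome 12, 4247362 to 4477206) read 19.5, 18.6 and 19.5 FPKM in controls and 7.92, 8.07 and 7.79 in knockouts, 2 narrow groups far apart (log2 change -1.18, SE 0.06, limma adjusted p = 6.5e-07; -0.83 after TMM). Ncoa2 (chromosome 1, 13139105 to 13374227) read 11.4, 10.2 and 10.8 FPKM in controls and 4.20, 3.77 and 3.52 in knockouts, again without overlap (log2 change -1.29, SE 0.08, limma adjusted p = 2.1e-06; -0.96 after TMM). Ncoa3 read 19.9, 17.8 and 17.9 FPKM in controls and 18.2, 17.2 and 18.1 in knockouts, and these overlapped. Its log2 change was -0.05 (95% interval -0.20 to 0.10, limma adjusted p = 0.52) and 0.31 after TMM, where it was called higher. In the 3 control libraries Ncoa2 stood at 0.573, 0.572 and 0.603 of Ncoa3, and in the knockout libraries at 0.231, 0.219 and 0.194.

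The general coactivators Ep300 and Crebbp, which acetylate histones at enhancers, both fell. Crebbp read 10.3, 8.39 and 7.55 FPKM in controls and 4.0, 4.21 and 4.24 in knockouts (log2 change -0.91, SE 0.10, limma adjusted p = 5.9e-05; -0.59 after TMM). All 3 knockout libraries were below the lowest control. Ep300 fell from 21.5 ± 0.631 to 11.7 ± 0.727 FPKM, a log2 change of -0.83 (-0.47 with TMM). The related Kat2a and Kat2b, acetyltransferase subunits of the SAGA and ATAC complexes, fell with log2 changes of -0.68 and -0.87 (-0.32 and -0.55 after TMM). Kat7, Kat8 and Kat5, all of the MYST family, fell as deposited with log2 changes of -0.41, -0.38 and -0.32 and were not called after TMM (-0.061, -0.034 and 0.040). Hat1, which acetylates newly made histones, had the highest mean of the class, with 28.9, 32.3 and 27.5 FPKM in controls and 25.8, 27.4 and 25.9 in knockouts. Its highest knockout value lay just below its lowest control value, and the log2 change was -0.16 (limma adjusted p = 0.074), or 0.21 after TMM, where it was called higher. Without the last control library Hat1 was called lower as deposited, at -0.21.

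Among the sirtuins, NAD-dependent deacylases, 4 of 6 fell and 1 rose as deposited, and 1 fell and 1 rose after TMM scaling, with a median log2 change of -0.39 (-0.02 after TMM). Over all tested genes 58.8% fell and 11.0% rose as deposited, and 26.0% fell and 30.0% rose after TMM. With 6 genes, these counts do not set the class apart. Sirt1 (chromosome 10, 63319005 to 63339035), a nuclear deacetylase of histones and transcription factors, read 7.83, 7.84 and 7.78 FPKM in controls and 3.55, 3.28 and 4.45 in knockouts. The controls were almost equal, and the groups did not overlap (log2 change -0.90, SE 0.10, limma adjusted p = 4.3e-05; -0.58 after TMM). Sirt2, a mainly cytosolic deacetylase and the most abundant of the 52 genes, read 90.7, 94.6 and 88.5 FPKM in controls and 66.5, 72.2 and 67.2 in knockouts. It fell as deposited (log2 change -0.41, limma adjusted p = 0.00025) and was not called after TMM (-0.03, 95% interval -0.17 to 0.10). Sirt7, a nucleolar deacylase, read 53.9, 53.2 and 54.0 FPKM in controls and 40.5, 44.5 and 38.6 in knockouts (log2 change -0.38; -0.01 after TMM, where it was not called). Sirt5, a mitochondrial desuccinylase, read 3.37, 3.50 and 3.42 FPKM in controls and 2.05, 2.58 and 1.92 in knockouts (log2 change -0.48; -0.21 after TMM, where it was not called). Both Sirt7 and Sirt5 were without overlap as deposited.

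Sirt3, the main mitochondrial deacetylase, named here after its values were seen, went the other way. It read 11.1, 9.94 and 11.9 FPKM in controls and 12.1, 13.4 and 13.7 in knockouts, with the lowest knockout just above the highest control. As deposited Sirt3 rose by 0.23 on the log2 scale (SE 0.08, limma adjusted p = 0.027) and by 0.58 (adjusted p = 0.00026) after TMM. The call as deposited was lost when the first or second control or the second or last knockout library was left out, with log2 changes of 0.24, 0.17, 0.22 and 0.20. Sirt6, a chromatin-bound deacylase, overlapped between the groups, at 7.95 ± 0.905 and 7.04 ± 0.687 FPKM, and was called under neither scaling (log2 change -0.15, 95% interval -0.37 to 0.07; 0.18 after TMM).

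All 4 bromodomain readers fell as deposited, and after TMM scaling 1 fell and 1 rose. Of all tested genes 58.8% fell as deposited, and 26.0% fell and 30.0% rose after TMM, so the counts after TMM were near the general shares. Brd9 (chromosome 13, 73937801 to 73960895), a subunit of the non-canonical BAF remodelling complex, read 29.7, 26.4 and 29.8 FPKM in controls and 13.4, 14.7 and 14.0 in knockouts. Every knockout library was far below every control (log2 change -0.98, SE 0.07, limma adjusted p = 4.3e-06; -0.62 after TMM). Brd7, its counterpart in the PBAF complex, read 21.2, 22.4 and 25.97 FPKM in controls and 16.7, 17.0 and 15.5 in knockouts, without overlap (log2 change -0.47; -0.11 after TMM, where it was not called). The BET proteins Brd2 and Brd3, which bind acetylated histones at active promoters and enhancers, had the smallest changes of the 4 as deposited, an order that did not hold after TMM. Brd2 read 74.6, 71.8 and 71.4 FPKM in controls and 63.4, 59.2 and 65.6 in knockouts. It is the 1 gene of the 52 whose call turned, lower as deposited (log2 change -0.21, limma adjusted p = 0.011) and higher after TMM (0.16, adjusted p = 0.047). Brd3 had log2 changes of -0.33 as deposited and 0.0068 after TMM, the latter not called.

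**Figure D2:**
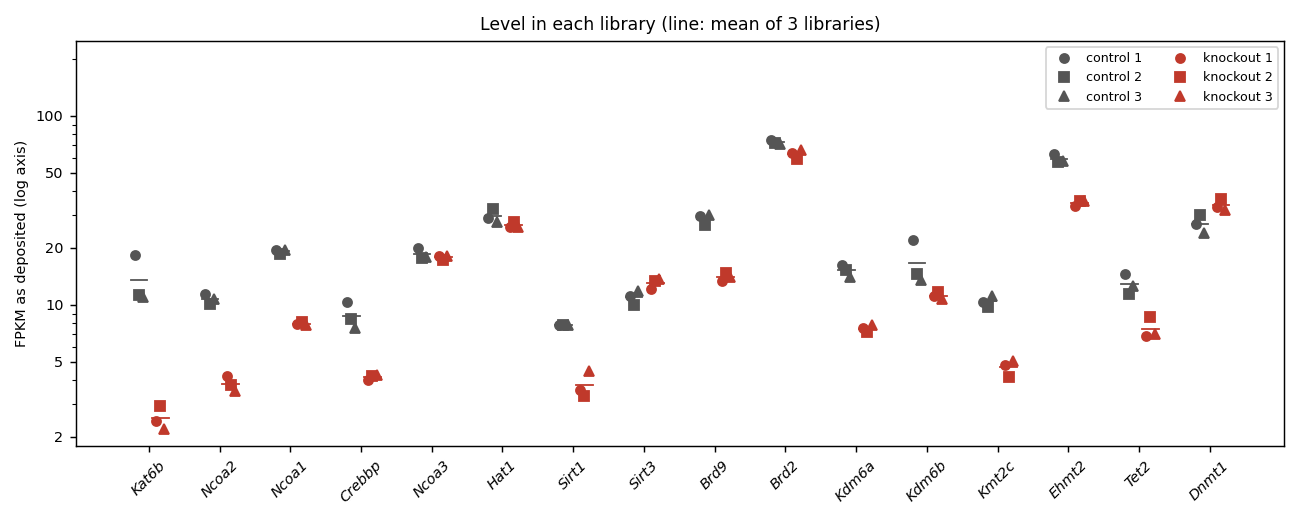
FPKM as deposited of 16 genes in each library (log axis), control libraries in grey and knockout libraries in red, with a line at the mean of 3. Kat6b, Ncoa2, Ncoa1 and Brd9 show separated groups, Ncoa3 overlaps, Dnmt1 and Sirt3 are higher in knockouts, and the first control library stands apart for Kat6b and Kdm6b.

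Histone demethylases fell as a class: 13 of 13 were lower as deposited (58.8% of all tested genes) and 10 of 13 after TMM scaling (26.0%), and none rose under either. Their median log2 change was -0.75 (-0.40 after TMM), and all 13 lay below the median of all tested genes under both scalings. Kdm3b (chromosome 18, 34777008 to 34839370), which removes methyl groups from lysine of histone H3 tails and had the highest mean of the class, read 21.8, 21.9 and 24.2 FPKM in controls and 11.6, 10.5 and 11.2 in knockouts (log2 change -0.96, SE 0.07, limma adjusted p = 4.5e-06; -0.61 after TMM). Its close relative Kdm3a read 12.2, 11.3 and 11.4 FPKM in controls and 6.38, 5.53 and 5.61 in knockouts (log2 change -0.89, limma adjusted p = 1.1e-05; -0.55 after TMM). Kdm3b was 2.03-fold and Kdm3a 1.99-fold lower, and neither overlapped between groups. Kdm4b, of the family that acts on heterochromatic methylation, read 6.08, 5.55 and 5.98 FPKM in controls and 2.53, 3.14 and 3.06 in knockouts (log2 change -0.82, limma adjusted p = 4.4e-05; -0.51 after TMM).

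Kdm6a and Kdm6b both erase the methyl mark that polycomb writes. Kdm6a, an X-linked gene, read 16.3, 15.3 and 14.0 FPKM in controls and 7.51, 7.16 and 7.81 in knockouts (log2 change -0.93, SE 0.07, limma adjusted p = 8.0e-06; -0.59 after TMM). Kdm6b, which macrophage stimuli induce, read 22.0, 14.6 and 13.5 FPKM in controls and 11.1, 11.7 and 10.7 in knockouts. The groups did not overlap, but the first control library was far above the rest. For Kdm6b this was a log2 change of -0.51 (SE 0.17, limma adjusted p = 0.029), which was -0.31 without that library, and was not called after TMM (-0.16). With that library left out the gene was still called, while the call as deposited was lost without any 1 of the 3 knockout libraries, at -0.51, -0.54 and -0.49. Of 4 stimulus-induced genes chosen after their values were seen, 3 were also highest in that library. Jun read 290.3, 185 and 118 FPKM in controls and 21.3, 22.6 and 23.1 in knockouts. Egr1 read 125, 102 and 57.6 FPKM in controls and 4.86, 5.76 and 3.79 in knockouts. The chemokine gene Cxcl2 read 496, 319 and 243 FPKM in controls and 8.87, 14.8 and 15.99 in knockouts. Fos, in contrast, was highest in the last control library, at 785, 764 and 821 FPKM in controls and 229, 277 and 351 in knockouts. All 4 genes were lower in every knockout library than in every control library, and the part of this in the Kdm6b difference was not tested.

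The other demethylases were Kdm1a, Kdm2a, Kdm2b, Kdm4a, Kdm4c, Kdm5a, Kdm5b and Kdm5c, with log2 changes between -0.80 for Kdm5c and -0.37 for Kdm2b. Of these 8 genes, Kdm5b and Kdm2b, the least abundant of the class beside Kdm4b, were not called after TMM (-0.24 and -0.07). Kdm1a, the flavin-dependent demethylase of the CoREST complex, had a log2 change of -0.75 (-0.40 after TMM), with means of 17.5 ± 0.687 and 9.97 ± 0.265 FPKM. The X-linked Kdm5c, which acts on the active promoter mark, fell from 19.5 ± 0.797 to 10.8 ± 0.280 FPKM, a log2 change of -0.80 (-0.44 with TMM).

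All 12 histone methyltransferases and polycomb partners fell as deposited, 7 of 12 fell after TMM scaling and none rose, with a median log2 change of -0.58 (-0.23 after TMM). The shares of falls over all tested genes were 58.8% and 26.0%. Kmt2c (chromosome 5, 25271795 to 25498855), an enhancer methyltransferase of the MLL family, read 10.3, 9.79 and 11.2 FPKM in controls and 4.83, 4.15 and 5.04 in knockouts. It had the largest fall of the class, without overlap (log2 change -1.01, SE 0.08, limma adjusted p = 1.1e-05; -0.69 after TMM). Kmt2a, which methylates promoters of developmental genes, read 8.49, 8.27 and 8.69 FPKM in controls and 5.07, 4.73 and 4.73 in knockouts (log2 change -0.70, limma adjusted p = 2.3e-05; -0.37 after TMM). Kmt2d, the paralog of Kmt2c that also acts at enhancers, fell from 19.6 ± 1.61 to 12.3 ± 0.362 FPKM, a log2 change of -0.63 (-0.27 with TMM). Ehmt2, which writes a repressive mark in euchromatin and is the most abundant of the class, read 63.0, 56.9 and 57.8 FPKM in controls and 33.5, 35.4 and 35.4 in knockouts (log2 change -0.75, limma adjusted p = 8.7e-06; -0.38 after TMM). Setdb1, which silences endogenous retroviruses, and Setd2, which marks transcribed gene bodies, fell with log2 changes of -0.65 and -0.54 (-0.30 and -0.19 after TMM). Dot1l, which methylates the histone core, was called lower as deposited only (log2 change -0.29; 0.041 after TMM). Its call was lost without the first control library or without the first or last knockout library, at -0.21, -0.25 and -0.26.

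Within the polycomb complex PRC2, the scaffold subunit Suz12 was called lower under both scalings. Suz12 read 13.3, 14.99 and 13.1 FPKM in controls and 8.89, 7.66 and 7.24 in knockouts (log2 change -0.73, SE 0.09, limma adjusted p = 8.4e-05; -0.39 after TMM, adjusted p = 0.0051). Eed, which binds the mark that PRC2 writes, fell from 28.1 ± 0.516 to 19.6 ± 0.781 FPKM as deposited (log2 change -0.50). The alternative catalytic subunits Ezh1 and Ezh2 fell as deposited too (log2 changes -0.47 and -0.44). After TMM scaling Eed, Ezh1 and Ezh2 were not called, at -0.13, -0.12 and -0.10, and the difference between Suz12 and these subunits was not tested. The ratio of Ezh1 to Ezh2 was 1.26 in controls and 1.24 in knockouts, with overlapping libraries. Of 20 tested markers of proliferating cells, 7 rose, 2 fell and 11 were not called as deposited. After TMM 15 rose and 0 fell. Over all tested genes 11.0% rose and 58.8% fell as deposited, and 30.0% rose and 26.0% fell after TMM. The summed level of the proliferation markers was 373 to 479 FPKM in controls and 490 to 541 in knockouts.

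Of the 4 genes of DNA methylation, Dnmt1 rose and the other 3 fell, under both scalings. Over all tested genes 58.8% fell and 11.0% rose as deposited, and 26.0% fell and 30.0% rose after TMM. Dnmt1 (chromosome 9, 20907206 to 20959888), which copies DNA methylation after replication, read 26.6, 30.0 and 23.9 FPKM in controls and 32.9, 36.2 and 31.7 in knockouts. The lowest knockout was above the highest control (log2 change 0.32, SE 0.09, limma adjusted p = 0.010; 0.68 after TMM, adjusted p = 0.0002). Among all tested genes 91.0% had a lower log2 change. The de novo enzyme Dnmt3a read 14.1, 13.3 and 14.6 FPKM in controls and 9.31, 9.56 and 9.27 in knockouts (log2 change -0.53, limma adjusted p = 7.9e-05; -0.18 after TMM). Tet2, which oxidises methylcytosine, read 14.6, 11.5 and 12.6 FPKM in controls and 6.85, 8.63 and 7.01 in knockouts (log2 change -0.71, limma adjusted p = 0.00034; -0.37 after TMM). Tet3 read 10.9, 11.4 and 13.5 FPKM in controls and 6.73, 6.96 and 7.54 in knockouts (log2 change -0.68, limma adjusted p = 0.00014; -0.34 after TMM). All 3 genes that fell were without overlap. Uhrf1, which brings Dnmt1 to hemimethylated DNA and is not among the 52, rose as well, at 9.95, 11.8 and 8.30 FPKM in controls and 13.2, 16.1 and 13.6 in knockouts (log2 change 0.48, limma adjusted p = 0.0076; 0.83 after TMM). Of the 20 proliferation markers, 7 rose as deposited and 15 after TMM. Their part in the rise of Dnmt1 and Uhrf1 was not tested.

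Ratios of related genes within a library do not depend on the scaling between libraries. For 20 pairs the ratio of FPKM was compared between the groups with a two-sided exact permutation test, for which 3 against 3 libraries allow no p below 0.10. In 14 pairs the ratios did not overlap between groups (exact p = 0.10, Benjamini-Hochberg adjusted p = 0.14 over the pairs), and no pair can pass 0.05 in this design. Taken singly, 74.5% of all tested genes did not overlap. The share among pairs of other genes was not computed, so the count of 14 does not set these pairs apart. Kat6a stood at 1.10 times Kat6b in controls, on geometric average, and at 3.49 times in knockouts (range 0.833 to 1.29 and 2.86 to 4.04). Ncoa2 relative to Ncoa3 dropped 2.72-fold, from 0.583 to 0.214. The ratio of Dnmt1 to Dnmt3a went from 1.91 (1.64 to 2.25) to 3.58 (3.42 to 3.79). Brd7 stood below Brd9 in every control library, at 0.716 to 0.871, and above it in every knockout library, at 1.11 to 1.25. Kmt2c relative to Kmt2d fell from 0.532 to 0.377, and Kdm6a relative to Kdm6b from 0.930 to 0.672. The remaining pairs without overlap, Kat2a/Kat2b, Ncoa1/Ncoa2, Brd2/Brd3, Kdm2a/Kdm2b, Kdm4a/Kdm4b, Kdm5a/Kdm5c, Ehmt1/Ehmt2 and Kmt2a/Kmt2d, had log2 differences of ratio between -0.39 and 0.43. The ratios of Ep300 to Crebbp, Sirt6 to Sirt7, Kdm3a to Kdm3b, Kdm5a to Kdm5b, Ezh1 to Ezh2 and Tet2 to Tet3 overlapped. Reads shared by near-identical stretches of paralogs may be split between them in the deposited values.

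**Figure D3:**
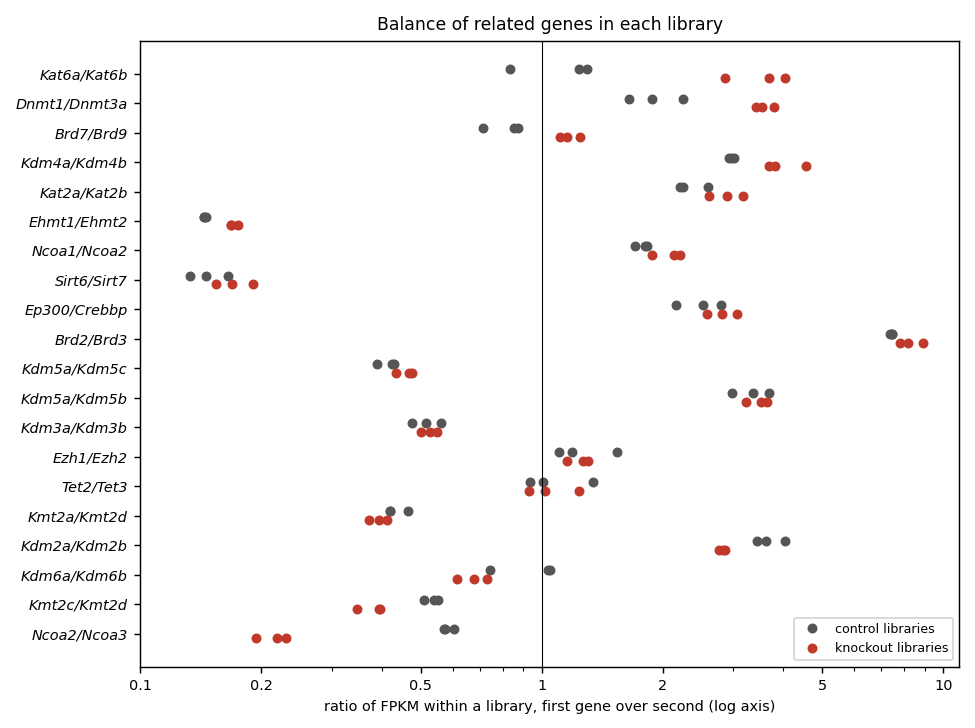
Ratio of FPKM of related genes within each library (log axis), first gene over second, for 3 control libraries (grey) and 3 knockout libraries (red). Kat6a/Kat6b and Dnmt1/Dnmt3a are farthest up in knockouts, Ncoa2/Ncoa3 is farthest down, and 6 of the 20 pairs overlap.

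Writers, erasers and readers outside the 52 were counted in the same way. A list of 97 further genes of the same complexes and families, all in the table, had 87 tested members, of which 60 fell and 6 rose as deposited and 35 fell and 21 rose after TMM scaling, with medians of -0.48 and -0.12. Over all tested genes 58.8% fell and 11.0% rose as deposited, and 26.0% fell and 30.0% rose after TMM scaling. The largest falls were those of Hr, Kdm7a and Jarid2. Hr, a nuclear receptor corepressor of the jumonji family, read 16.2, 12.9 and 10.4 FPKM in controls and 0.880, 0.630 and 0.990 in knockouts, 15.8-fold lower on average (log2 change -2.94, limma adjusted p = 1.2e-06; -2.67 after TMM). The demethylase Kdm7a fell from 7.84 ± 1.13 to 1.93 ± 0.242 FPKM, a log2 change of -1.59 (-1.30 with TMM). Jarid2, an accessory subunit of PRC2, fell from 6.94 ± 0.336 to 1.90 ± 0.171 FPKM, a log2 change of -1.45 (-1.16 with TMM). The largest rises were those of Kmt5a, Uhrf1 and Wdr5. Kmt5a, which methylates histone H4 during the cell cycle, read 56.0, 58.4 and 54.8 FPKM in controls and 92.6, 90.3 and 92.1 in knockouts, without overlap (log2 change 0.69, limma adjusted p = 6.7e-06; 1.06 after TMM). Wdr5, a shared subunit of the MLL-type methyltransferase complexes, read 15.7, 15.9 and 15.5 FPKM in controls and 22.6, 22.4 and 19.4 in knockouts, and rose (log2 change 0.42; 0.78 after TMM). The catalytic subunits Kmt2a, Kmt2c and Kmt2d fell. Among other partners in these complexes, Rbbp5 and Men1 fell as deposited (-0.40 and -0.50) and were not called after TMM (-0.05 and -0.14). Wdr5 was named for its large rise, and other partners on the list, such as Ash2l and Dpy30, are not given here. Wdr5, Rbbp5 and Men1 thus do not stand for the shared subunits.

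The 52 genes have long transcripts. The median of the longest annotated transcript was 5299.5 bases for them and 3323 bases for the 10391 tested genes with a length, and 28 of the 52 were in the longest of 4 equal groups by length. Over all tested genes the median log2 change as deposited went from -0.23 in the shortest group through -0.27 and -0.32 to -0.41 in the longest, and after TMM from 0.11 through 0.05 and 0.01 to -0.09. The medians of the chromatin genes in the same groups were -0.38 (5 genes), -0.44 (7 genes), -0.69 (12 genes) and -0.67 (28 genes), and after TMM -0.03, -0.10, -0.35 and -0.33. In each group they lay below the median of all tested genes. Whether transcript length has a part in the fall was not tested beyond these medians.

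**Figure D4:**
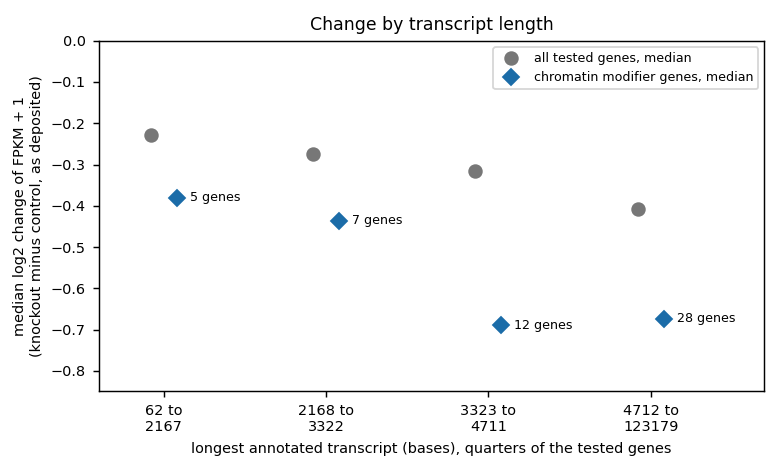
Median log2 change of FPKM + 1 (knockout minus control, as deposited) for all tested genes (circles) and for the chromatin genes (diamonds, with their number) in 4 groups by transcript length (bases). The diamonds lie below the circles in all 4 groups, and both are lowest in the longer ones.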

How the data were processed

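RNA from 3 control and 3 knockout samples was measured, 1 library each, and groups were taken from the sample titles. The authors deposited gene-level FPKM with 2 decimals, per the file headers, and alignment and quantification used Bowtie2 and RSEM with mm10, per the submitters' processing notes, with versions, strand handling and trimming not given in the sources used here. FPKM keep no absolute depth, so no counting interval is given. The worth of 1 read in low genes with 1 transcript put the depth of the other libraries at about 96.6% to 105% of the first control, an estimate in which equal values were left out after its first result was seen. Only ratios close to equal depth were searched, so the estimate could not have shown a large difference. In 24 rows the symbol had turned into a date and was restored by gene ID. FPKM sums were 462253 to 504966 per library.

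The log2(FPKM + 1) values entered limma 3.58.1 (R 4.3.3), trended and robust, two-sided, with Benjamini-Hochberg adjustment over the 10847 genes whose mean reached 1 FPKM. TMM factors (30% and 5% trimmed at each end) were computed on the FPKM matrix, and 10817 genes passed the filter after it. The script was tested on simulated data. Promoter windows and coordinates come from RefSeq on GRCm38.p6, which mm10 corresponds to, matched by gene ID (18342 of 18392), and lengths from GENCODE transcripts.

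The members and lists were chosen with earlier results of these data known. Genes given per library are, in each class, up to 4 called members with the largest change and the same sign after TMM, the most abundant member, and any whose call turned. Ncoa3, Sirt3 and Kdm6b were added after their values were seen. Of other chromatin genes, 3 per direction are named. Same-numbered libraries were checked for pairing and treated as unpaired. Alternatives were TMM scaling, a pseudocount of 0.1, no filter, a plain variance model, a replicate block and leaving out each library.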

Additional observations from a re-analysis of the deposited data

How the results depend on the processing

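With a pseudocount of 0.1, without the filter on low values, with a plain variance model and with replicate number as a block, all 52 chromatin genes kept the direction and the side of the threshold they had as deposited. Same-numbered libraries did not deviate together (r = -0.11, -0.06 and -0.09 across tested genes). The labels do not state a pairing, and this check cannot exclude that samples were collected or prepared in pairs. With the replicate block 47 of the 52 fell and 2 rose, the same counts as without it, and of all tested genes 6193 fell and 1180 rose. TMM scaling moved the counts most: 30 of the 52 fell and 5 rose, and of all tested genes 2808 fell and 3248 rose, beside 6376 and 1194 as deposited. After it the acetyltransferases had 2 rises, the sirtuins 1 fall, the bromodomain readers 1 fall and 1 rise, and the methyltransferases 7 falls, and of the other chromatin genes 35 fell and 21 rose. TMM turned the sign for Kat5 (0.040), Hat1 (0.21), Ncoa3 (0.31), Brd3 (0.0068), Brd2 (0.16), Dot1l (0.041) and Sirt6 (0.18), by its construction, since it raises every change. Leaving out 1 library at a time, 45 to 48 of the 52 fell and 1 to 2 rose, the sirtuins had 0 to 1 rise, and the log2 change of Ncoa3 ranged from -0.076 to 0.0013, the latter without the first control. With 1 FPKM added to both genes, 10 of 20 pair ratios did not overlap. Without counts, the depth behind low genes such as Kdm5b is unknown.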
